A study of Mus musculus with 16 samples.

Results

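Clone 4 and clone 8 of the mouse line CRAFR26 were compared in how their RNA changed when a MEK inhibitor was added after induction of a c-RAF kinase construct. The change was the level after the inhibitor (the group rev) against the level just before it (the group 4h), and the quantity described here is that change in clone 8 minus that in clone 4. Of 16 libraries in all, 8 define it: 2 libraries of each clone at 4h and 2 of each clone at rev. The 8 libraries at 0h and 2h took no part in the contrast itself and are used below to show where each gene stood earlier. They did enter the gene filter, the scaling and the estimate of the spread between libraries.

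The labels name the cell type as RSC, obtained from mouse embryonic stem cells that carry the construct, and their routine medium (N2B27) held IWP2, the MEK inhibitor PD0325901 and the cytokine LIF. IWP2 blocks the secretion of Wnt ligands. In every group, clone 4 and clone 8 alike, PD0325901 was replaced for 48 h by the FGF receptor inhibitor PD173074 at 250 nM. Cells at 0h had no tamoxifen, cells at 2h and 4h had 250 nM 4-hydroxytamoxifen for 2 h or 4 h, and rev cells had 4 h of tamoxifen and then 2 h of MEK inhibitor. The labels give no dose for the inhibitor at rev and do not say whether tamoxifen stayed in the medium. No group with 6 h of induction and no inhibitor was analysed here, so the inhibitor and the further 2 h of culture cannot be told apart. Each clone is 1 line, so a clone difference compares 2 lines and not 2 genotypes. Nothing says that the 2 libraries of a clone and condition came from separate cultures, so p-values measure only the spread between these libraries, which may be technical.

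RAF kinases phosphorylate MEK, and MEK phosphorylates ERK. Active ERK raises transcription factors of the immediate-early class, such as Egr1 and the Fos and Ets families, and also its own inhibitors, such as the dual-specificity phosphatases and the Sprouty and Spred proteins. A MEK inhibitor cuts the pathway below RAF. In mouse pluripotent cells ERK signalling is known for moving cells out of the naive state, and Nodal signalling with its secreted antagonists Lefty1 and Lefty2 acts beside it.

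Levels are CPM, the count of a gene over the summed counts of all tested genes in its library on a fixed common scale, with TMM factors that correct for differences in library composition. Library totals ran from 4313599 to 10444126 counts, of which 46.7% to 78.9% lay in 8 features, 3 of them annotated as ribosomal RNA, and 1301790 to 5457796 lay outside them. The shallowest was library 1 of clone 8 at rev, with 1301790 counts outside them, where 3 counts equal 0.908 CPM. All 16 libraries separated by clone on the first principal component (51% of the variance). On the third (8.57%), all 0h and 4h libraries were positive and all 2h and rev libraries negative, in both clones; the labels give no batch. Both rev against 4h and 2h against 0h cross that split, and its part in the results was not tested. The 8 pluripotent markers were all tested and summed to 1094 to 1164 CPM in clone 4 at 4h and 1470 to 1578 CPM in clone 8 at rev, with the other groups between. Of the 10 fibroblast markers 2 were tested. Col3a1 and Dcn were at 0 in all 8 libraries at 4h and rev, and every other one had reads in some of them.

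The change from 4h to rev differed between the clones for 1681 of 12742 tested genes, which is 13.2% (edgeR's quasi-likelihood interaction test over all 12742, called at a Benjamini-Hochberg adjusted p under 0.05). It was higher in clone 8 for 803 genes (6.3% of those tested) and lower for 878 (6.89%), so that 47.8% of the calls were higher. The split was 834 higher and 819 lower with the size factors of DESeq2. It was 820 and 831 with the 8 features of largest count left out. Library totals, which include those features, gave another split. Scaled by library totals, the median difference over all tested genes moved from -0.02 to -0.67 on the log2 scale, and 6.28% of 1895 calls were higher; without a filter on low counts 35.7% of 1776 were. All directions below are therefore relative to the median gene under TMM. The count was 727 without library 1 of clone 4 at 4h and 984 without library 2 of clone 4 at rev.

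More genes were called in clone 4 than in clone 8 under TMM, and fewer with library totals (1273 against 2111). In counts before TMM, with the 8 features of largest count included, libraries of the same group lay further apart in clone 8 than in clone 4. Chi-square per degree of freedom was 36.5 at 4h and 67.2 at rev in clone 8, against 6.89 and 4.36 in clone 4. The share of counts in those 8 features was 53.3% and 61.8% in the clone 8 libraries at 4h and 78.9% and 63.6% at rev. In clone 4 it was 63.3% and 64.6% at 4h and 62.4% and 59.6% at rev. The chi-square thus takes in differences in composition that TMM corrects, and the spread left after TMM is not given by it. The shallowest library was also from clone 8 at rev. A gene not called in clone 8 is not shown to be unchanged there. The part of this spread in the counts of called genes was not tested. Between 4h and rev, 3362 genes were called in clone 4 (26.4%; 1715 rose, 13.5%, and 1647 fell, 12.9%), against 733 in clone 8 (5.75%; 401 rose, 3.15%, and 332 fell, 2.61%). Of the 803 genes with a higher change in clone 8, 584 fell in clone 4 and were not called in clone 8, 90 were not called in clone 4 and rose in clone 8, and 35 fell in clone 4 and rose in clone 8. A further 29 fell in both clones, 2 rose in both and 63 passed in neither. Of the 878 with a lower change, 670 rose in clone 4 and were not called in clone 8, 63 were not called in clone 4 and fell in clone 8, and 33 rose in clone 4 and fell in clone 8. Here 24 rose in both, 2 fell in both and 86 passed in neither. The plot of the change in clone 8 against that in clone 4 shows these sets on the 2 sides of the line of equal change.

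**Figure D1:**
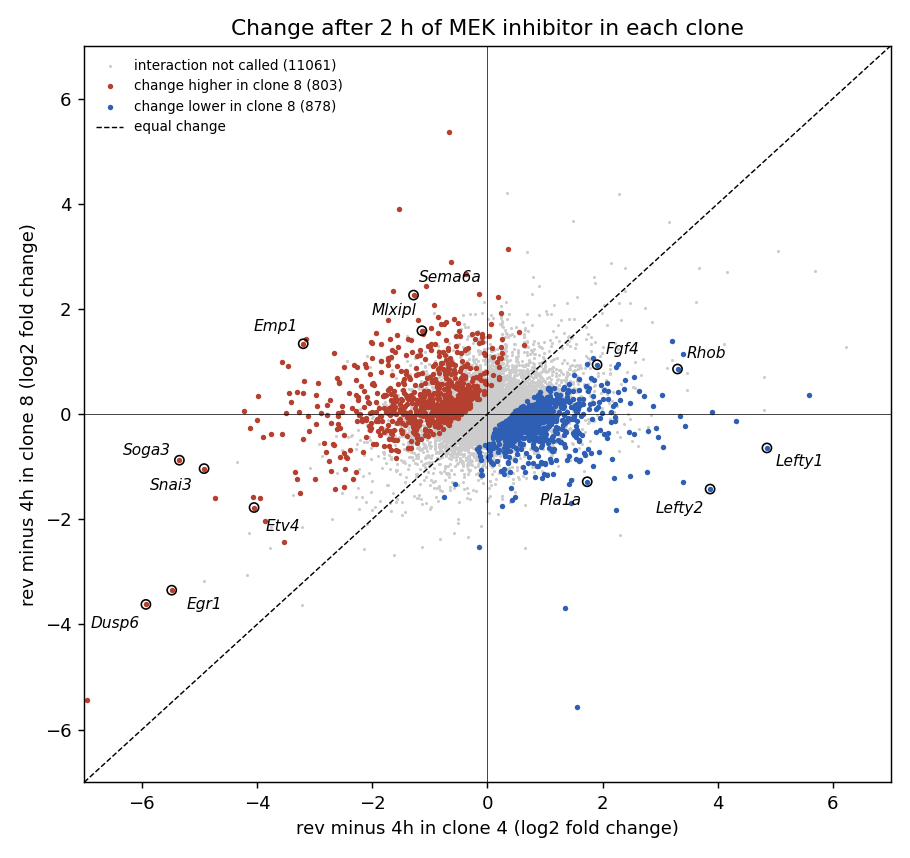
Each point is a tested gene, placed by its log2 change from 4h to rev in clone 4 (horizontal) and in clone 8 (vertical). The 803 genes with a higher change in clone 8 lie above the dashed line of equal change, mostly left of 0, and the 878 with a lower change lie below it, mostly right of 0.

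The clones stood apart at 4h, at rev, or at both. At 4h 3086 genes differed in level between them (24.2%; 1611 higher in clone 8, 12.6%, and 1475 higher in clone 4, 11.6%), and at rev 3125 did (24.5%; 1561 and 1564, 12.3% each). Among the 803 genes with a higher change in clone 8, 347 were higher in clone 4 at 4h and did not pass at rev, and 257 were higher in clone 8 at rev and did not pass at 4h. Another 70 switched from higher in clone 4 to higher in clone 8, 55 were higher in clone 4 at both, 31 higher in clone 8 at both, and 43 passed at neither. For the 878 with a lower change the counts were 338 higher in clone 8 at 4h alone, 331 higher in clone 4 at rev alone, 68 switched, 55 higher in clone 8 at both, 29 higher in clone 4 at both and 57 at neither. At 0h, before induction, 1489 genes differed (11.7%; 896 higher in clone 8, 7.03%, and 593 higher in clone 4, 4.65%). The 0h shares were 12.8% and 8.72% among the 803, and 16.5% and 6.61% among the 878. Their median level differences at 0h were -0.01 and 0.09 on the log2 scale, where all tested genes had 0.00.

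**Figure D2:**
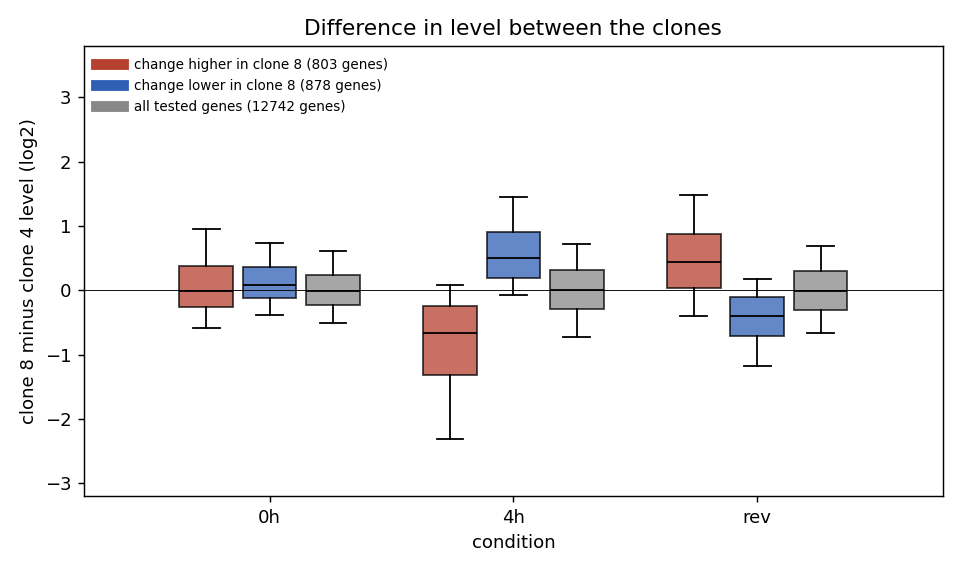
Boxes show the clone 8 minus clone 4 level (log2) at 0h, 4h and rev for the 803 genes with a higher change in clone 8, the 878 with a lower change and all 12742 tested genes; boxes span the quartiles and whiskers the central 80% of genes. The medians of the called sets lie near 0 at 0h, at -0.66 and 0.50 at 4h, and at 0.43 and -0.40 at rev; the choice of the genes fixes the sign of the step from 4h to rev.

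Several of the largest differences with a higher change in clone 8 were in genes well expressed in clone 4 at 4h and at a few CPM in the other libraries of the comparison. Ptprn, a transmembrane protein of dense-core secretory granules (chr1:75247027-75264502, minus strand, build mm10 as for all gene positions here), stood at 52.1 and 31.7 CPM in the 4h libraries of clone 4 and at 2.26 and 2.33 CPM at rev. In clone 8 it stood at 2.21 and 1.23 CPM at 4h and at 2.12 and 1.79 CPM at rev. The clone 4 libraries at 4h were the high ones and overlapped no others. Genes were named in part for changes whose library values did not overlap between the clones, so such separation was partly selected for. Ptprn fell by 4.22 on the log2 scale in clone 4 (SE 0.24, adjusted p 3.59e-15, edgeR) and its value in clone 8 was 0.06 (SE 0.48, adjusted p 0.97).

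Snai3, a zinc-finger transcription factor of the Snail family (chr8:122454208-122460733, minus strand), had the same form. Its clone 4 libraries read 82.3 and 62.5 CPM at 4h and 3.16 and 1.75 CPM at rev, and those of clone 8 read 2.92 and 4.75 CPM at 4h and 0.606 and 2.30 CPM at rev. Snai3 fell by 4.92 in clone 4 (SE 0.22), and the clone 8 value was -1.04 (SE 0.42, adjusted p 0.165, edgeR). Soga3 (chr10:29143839-29199630, plus strand) stood at 34.7 and 24.6 CPM in clone 4 at 4h and at 0.565 and 0.873 CPM at rev. Clone 8 had 4.12 and 3.83 CPM of it at 4h and 2.72 and 1.92 CPM at rev. Soga3 fell by 5.35 in clone 4 (SE 0.29) and its clone 8 value was -0.88 (SE 0.36, adjusted p 0.174, edgeR).

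Ccnd2, cyclin D2, which starts the cell cycle with its kinase partners, stood at 34.0 and 29.7 CPM in clone 4 at 4h and at 2.48 and 1.55 CPM at rev. Its clone 8 values were 1.81 and 1.84 CPM at 4h and 0.908 and 2.05 CPM at rev, with 3 counts in the shallowest library. Il6ra, the ligand-binding chain of the interleukin-6 receptor, fell from 41.1 and 26.9 CPM to 2.94 and 2.23 CPM in clone 4, and clone 8 held 8.85 and 6.13 CPM at 4h and 7.57 and 5.12 CPM at rev. Clone 8 was thus below clone 4 at 4h and above it at rev for Il6ra, and both level differences passed the test (-2.18 and 1.21 on the log2 scale, adjusted p 2.6e-10 and 0.00569, edgeR). Ociad2, Ap1s3 (a sigma subunit of the AP-1 clathrin adaptor) and Smim3 (a small membrane protein) had log2 changes of -3.45, -3.30 and -3.41 in clone 4, and their clone 8 values were 0.40, 0.42 and 0.23. In each of these 3 genes no clone 4 library at 4h overlapped any other library of the comparison, which the naming rule partly selects for. The calls of Ccnd2 and Snai3 were each lost in 1 of the alternatives tried.

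**Figure D3:**
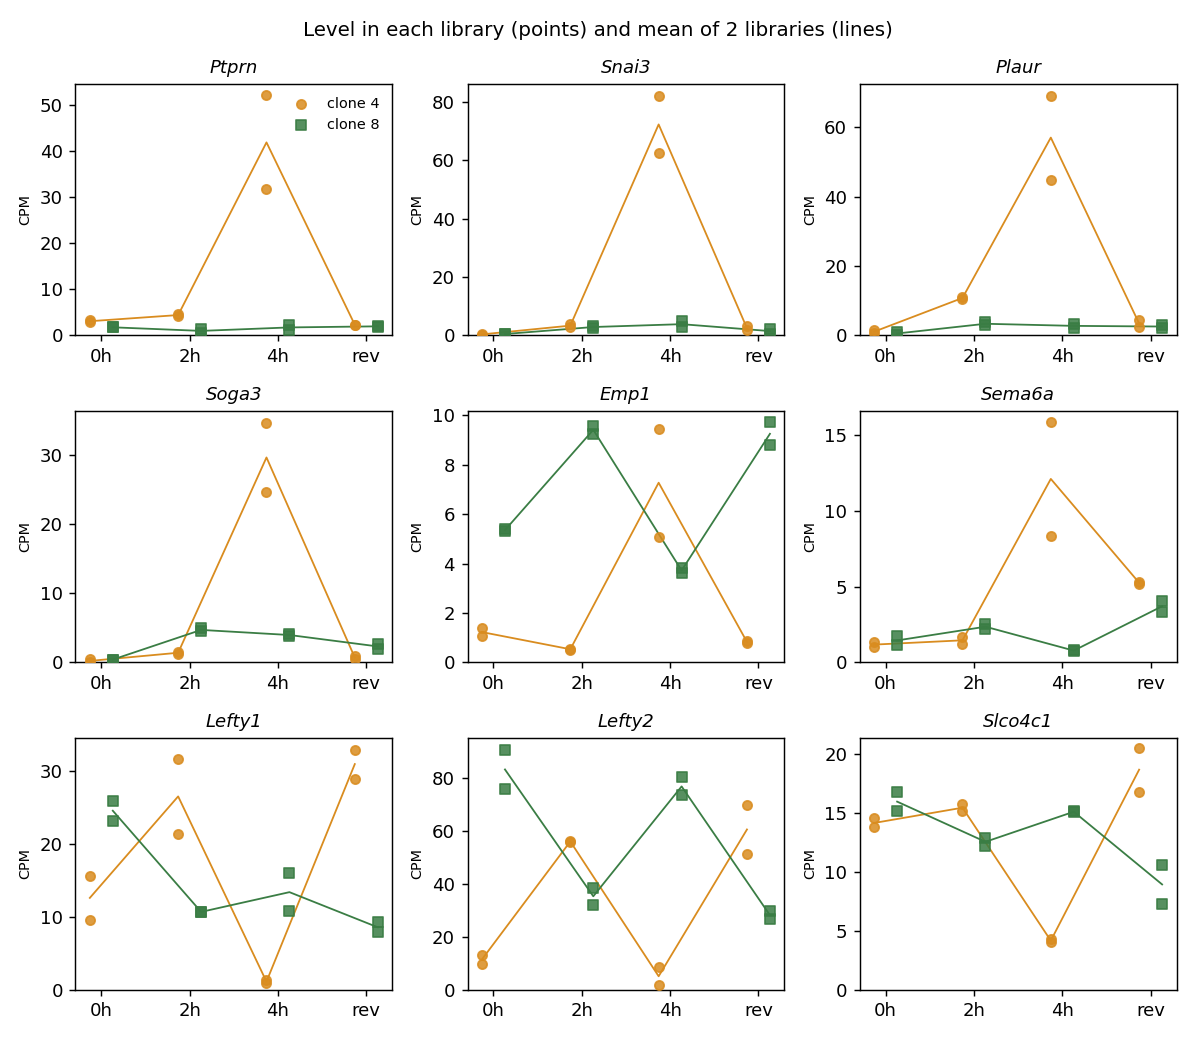
Level in CPM of 9 genes in each of the 16 libraries, by condition, with clone 4 as circles and clone 8 as squares; lines join the means of the 2 libraries of a clone. Ptprn, Snai3, Plaur and Soga3 are highest in the clone 4 libraries at 4h, Emp1 and Sema6a fall in clone 4 and rise in clone 8 from 4h to rev, and Lefty1, Lefty2 and Slco4c1 rise in clone 4 and have lower values at rev than at 4h in clone 8.

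Plaur, the receptor of the urokinase plasminogen activator (chr7:24462484-24475968, plus strand), stood at 69.2 and 45 CPM in clone 4 at 4h and at 4.4 and 2.43 CPM at rev. Clone 8 had 3.32 and 2.14 CPM at 4h and 3.03 and 2.05 CPM at rev. Plaur fell by 4.12 in clone 4 (SE 0.23), and the clone 8 value was -0.27 (SE 0.44, adjusted p 0.818, edgeR). Emp1, an epithelial membrane protein (chr6:135362545-135383173, plus strand), had the largest positive difference of the genes that met the naming rule. It fell from 9.47 and 5.08 CPM to 0.791 and 0.873 CPM in clone 4 and rose from 3.62 and 3.83 CPM to 8.78 and 9.72 CPM in clone 8. Its log2 changes were -3.2 (SE 0.34) and 1.34 (SE 0.25, adjusted p 0.000724, edgeR), a difference of 4.53 (SE 0.42, adjusted p 5.3e-09). Clone 8 already held more Emp1 at 0h, with 5.40 and 5.32 CPM against 1.40 and 1.06 CPM.

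Emp1 and Plaur were the genes among the 24 named by the rule whose RefSeq promoter windows (build GRCm38.p6, 250 bases before to 50 after a gene start) held the AP-1 letters TGANTCA, the form bound by Fos and Jun family dimers. Of the 24, 14 had a window in the table, 8 with a higher and 6 with a lower change. The bases before the RefSeq start are shown for these 2, the named genes that hold these letters, with the letters in capitals. The Emp1 stretch is chr6:135362708-135362930 and the Plaur stretch chr7:24462233-24462482, both on the plus strand and 5′ to 3′. The Emp1 stretch is 223 of the 250 bases, since the outer ones lie in an annotated untranslated exon and are left off. The annotation of Emp1 also holds a start further upstream, so this stretch lies inside the gene span given above.
Emp1: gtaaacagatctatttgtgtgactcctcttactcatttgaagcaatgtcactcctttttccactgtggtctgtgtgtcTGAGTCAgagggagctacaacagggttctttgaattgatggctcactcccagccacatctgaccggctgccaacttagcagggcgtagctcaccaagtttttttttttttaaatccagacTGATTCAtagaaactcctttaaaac
Plaur: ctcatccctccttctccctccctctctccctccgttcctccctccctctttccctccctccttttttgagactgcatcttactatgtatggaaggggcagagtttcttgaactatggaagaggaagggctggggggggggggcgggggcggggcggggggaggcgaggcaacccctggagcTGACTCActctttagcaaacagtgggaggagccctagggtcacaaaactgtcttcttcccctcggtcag
In Emp1 the 2 matches begin 145 and 25 bases before the RefSeq start, and in Plaur the match begins 69 bases before it. The letters TGANTCA, which read the same on both strands, stood in the windows of 9.57% of the 606 genes with a higher change in clone 8 that had one, 5.14% of the 681 with a lower change and 5.63% of all 9493 tested genes with one. The CArG box, bound by SRF, stood in 3.63%, 1.47% and 1.51%. For the ETS letters CCGGAAGT the shares were 6.11%, 4.85% and 9.43%, for the EGR letters GCGNGGGCG 16.8%, 16.3% and 12.8%, and for the FOXH1 letters AATNCACA 1.82%, 3.38% and 2.55%, all searched on both strands. Over all 32851 windows of the table the shares were 7.81% for AP-1, 1.63% for the CArG box, 3.89% for ETS, 5.55% for EGR and 3.60% for FOXH1. A match describes letters in a window and is not a measured site.

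Of the 21 tested transcription factors of the immediate-early class, 15 fell in clone 4, and in clone 8 4 fell and 3 rose. Of the 21, 7 had a higher change in clone 8 and 0 a lower one, against 6.3% of all genes, and their median difference was 0.80 on the log2 scale where all tested genes had -0.02. With library totals as the scaling 4 of the 21 were called, and none turned to a lower change. At 4h 16 of the 21 were higher in clone 4 and 0 in clone 8, against 11.6% and 12.6% of all genes. At rev the counts were 10 and 3, against 12.3% each.

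Egr1, the prototype of the class, stood at 228 and 290 CPM in clone 4 at 4h and at 6.55 and 5.04 CPM at rev. In clone 8 it went from 29.8 and 31.4 CPM to 3.63 and 2.69 CPM. Both clones lost most of their Egr1 RNA, and among the 8 libraries at 4h and rev the clone 4 libraries at 4h lay far above the others. Its log2 falls were -5.48 (SE 0.18) in clone 4 and -3.35 (SE 0.26) in clone 8, with a difference of 2.13 (SE 0.42, adjusted p 0.000619, edgeR). Etv4, an Ets factor and a known ERK target, fell from 39.7 and 32.5 CPM to 2.71 and 1.75 CPM in clone 4 and from 19.6 and 18.1 CPM to 3.94 and 6.27 CPM in clone 8. Junb fell from 26.8 and 23.9 CPM to 6.32 and 6.98 CPM in clone 4. Its clone 8 values were 9.65 and 9.04 CPM at 4h and 10.6 and 11.1 CPM at rev, a log2 value of 0.22 (adjusted p 0.626, edgeR).

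Fosl2, a Fos family partner of Jun proteins, fell by 1.72 in clone 4, from 13.9 and 8.64 CPM to 4.4 and 2.81 CPM. In clone 8 it held 4 and 3 counts at 4h and 2 and 15 counts at rev, so its fitted clone 8 value of 1.79 (SE 0.70, adjusted p 0.144, edgeR) rests on few counts, and its call was lost in 2 alternatives. Nab2, a repressor that binds Egr1, fell by 0.64 in clone 4 and rose by 0.77 in clone 8, where it went from 11.9 and 11.9 CPM to 23.0 and 18.7 CPM. Nr4a1 and Srf, the other 2 called members, fell by 0.82 and 0.63 in clone 4, with clone 8 values of -0.02 and 0.17. Myc, singled out after its values were seen, fell by 3.23 in clone 4 and 3.64 in clone 8, and the difference of -0.41 (SE 0.44, adjusted p 0.617, edgeR) did not pass.

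**Figure D4:**
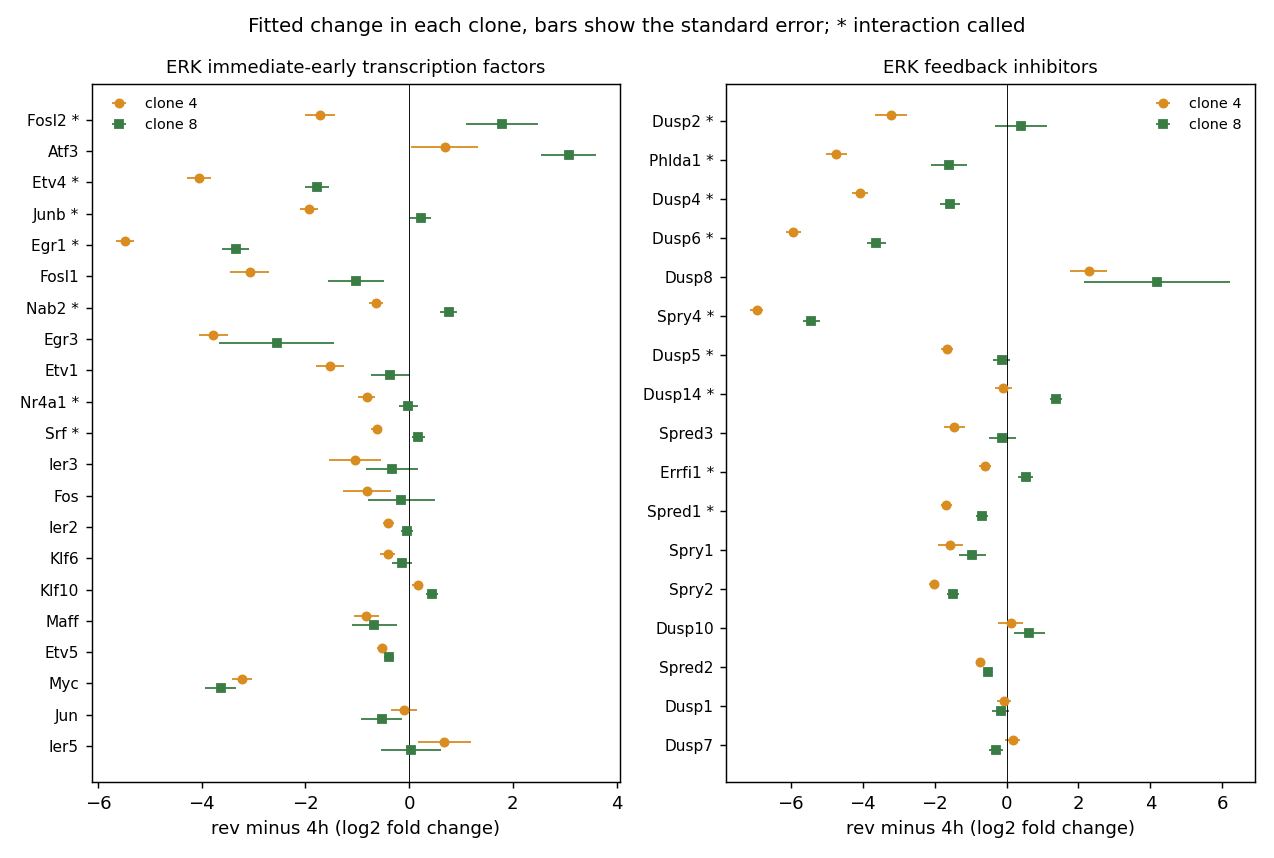
Log2 change from 4h to rev, with its standard error, for the 21 tested immediate-early transcription factors (left) and the 17 tested ERK feedback inhibitors (right), clone 4 as circles and clone 8 as squares. An asterisk marks the 7 and 9 members whose change differed between the clones; in each the clone 8 square lies right of the clone 4 circle.

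Of 17 tested feedback inhibitors of ERK, 9 had a higher change in clone 8 and 0 a lower one, against 6.3% and 6.89% of all genes, with a median difference of 1.33 (1.23 without Dusp8, which is at 0 in both clone 8 libraries at 4h). In clone 4 12 fell and 1 rose, and in clone 8 6 fell and 1 rose. At 4h 11 of the 17 were higher in clone 4 and 2 in clone 8, against 11.6% and 12.6% of all genes. At rev the counts were 3 and 1, against 12.3% each. The count of 9 was 5 without library 1 of clone 4 at 4h and 4 with library totals as the scaling.

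Dusp6, the phosphatase that acts on ERK itself, fell from 80.0 and 73.9 CPM to 1.47 and 1.07 CPM in clone 4 and from 22.8 and 19.3 CPM to 2.42 and 1.41 CPM in clone 8. The rev libraries of the clones lay close together, and their levels did not differ detectably (0.45 on the log2 scale, adjusted p 0.507, edgeR). Dusp4 fell from 68.8 and 59.7 CPM to 5.65 and 2.23 CPM in clone 4 and from 15.4 and 13.8 CPM to 4.24 and 5.25 CPM in clone 8. Spry4, a Sprouty inhibitor called but outside the naming rule, fell from 218 and 238 CPM to 2.26 and 1.46 CPM in clone 4 and from 55.0 and 54.4 CPM to 0.908 and 1.41 CPM in clone 8, and its adjusted p was 0.0387 (edgeR). Phlda1 and Dusp2 fell by 4.74 and 3.20 in clone 4, and their clone 8 values of -1.59 (SE 0.50, adjusted p 0.0516, edgeR) and 0.40 (SE 0.71, adjusted p 0.834, edgeR) did not pass. Phlda1 went from 26.7 and 23.6 CPM to 0.565 and 1.26 CPM in clone 4, and Dusp2 from 5.47 and 5.33 CPM to 0.452 and 0.679 CPM. Dusp14 rose by 1.38 in clone 8, from 17.2 and 28.0 CPM to 60.9 and 54.6 CPM, with a clone 4 value of -0.09 (adjusted p 0.821, edgeR).

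Among receptors, ligands and kinases of the pathway itself, 8 of 20 tested differed, against 13.2% of all genes. Of the 20, 3 had a higher and 5 a lower change in clone 8, against 6.3% and 6.89%. The median of 0.01 lay near that of all genes. Fgfr2, an FGF receptor, rose in clone 4 from 13.5 and 12.4 CPM to 39.1 and 42.7 CPM and stood at 11.2 and 6.89 CPM at 4h and 6.96 and 7.16 CPM at rev in clone 8. At rev no clone 8 library reached a clone 4 one, and the 0h libraries of clone 4 (41.0 and 49.1 CPM) were likewise above those of clone 8 (13 and 14.9 CPM). Fgf4, the FGF ligand of pluripotent cells, rose in both clones, from 56.1 and 82.0 CPM to 247 and 260 CPM in clone 4 and from 143 and 136 CPM to 266 and 270 CPM in clone 8. The rev levels of Fgf4 lay close together and did not differ detectably (0.08 on the log2 scale, adjusted p 0.641, edgeR), and the 4h levels were lower in clone 4. Braf, a RAF kinase, fell in clone 4 from 78.7 and 63.5 CPM to 33.1 and 38.2 CPM, and clone 8 held 31.0 and 34.5 CPM at 4h and 30.6 and 30.1 CPM at rev. Fgfr4 was at or below 3.20 CPM in each of the 8 libraries, and its call was lost in 7 alternatives. The counts were 1 and 3 without library 1 of clone 4 at 4h and likewise without library 2 of clone 4 at rev, and library totals gave 0 and 5.

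The largest differences in the other direction were in the Nodal antagonists. Lefty1 (chr1:180935022-180938400, plus strand) stood at 0.933 and 1.27 CPM in clone 4 at 4h, 7 and 5 counts, and at 32.9 and 28.9 CPM at rev. Clone 8 held 16 and 10.7 CPM at 4h and 7.87 and 9.21 CPM at rev. Clone 4 was thus the lower clone at 4h and the higher at rev, with no overlap in either condition. Lefty1 rose by 4.85 in clone 4 (SE 0.32), its clone 8 value was -0.64 (SE 0.23, adjusted p 0.106, edgeR), and the difference was -5.50 (SE 0.42, adjusted p 7.3e-11, edgeR).

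Lefty2, the neighbouring paralog (chr1:180893108-180899103, plus strand), changed in opposite directions in the clones. It rose in clone 4 from 1.73 and 8.38 CPM to 69.6 and 51.3 CPM, and fell in clone 8 from 73.3 and 80.1 CPM to 26.6 and 29.6 CPM. The log2 changes were 3.87 (SE 0.26) and -1.43 (SE 0.18, adjusted p 2.09e-06, edgeR), a difference of -5.29 (SE 0.32, adjusted p 2.57e-13). At 0h clone 4 held 13.2 and 9.70 CPM and clone 8 75.6 and 90.5 CPM, and at 2h 56.3 and 55.6 against 32.0 and 38.5 CPM. Over the 4 conditions in order, the Lefty2 values of clone 4 were low, high, low and high, and those of clone 8 were high, low, high and low. The change from 0h to 2h, from libraries that the rev and 4h contrast did not use, also differed between the clones, by -3.54 for Lefty2 and -2.31 for Lefty1 (SE 0.27 and 0.26, adjusted p 1.32e-10 and 4.86e-07, edgeR). Counts of these paralogs can be split or shared by read placement.

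Of 21 tested genes of Nodal and activin signalling, 6 had a lower change in clone 8 and 1 a higher one. The shares of all genes were 6.89% and 6.3%, and the median of the list was -0.32. Smad7, an inhibitor of the pathway inside the cell, fell in clone 8 from 99.5 and 83.3 CPM to 34.2 and 34.7 CPM, and its clone 4 value was 0.41 (SE 0.16, adjusted p 0.0505, edgeR), at 28.8 and 47.0 CPM at 4h and 48.6 and 48.0 CPM at rev. Pcsk6, a protease that matures Nodal, and the signal transducer Smad3 rose by 1.16 and 1.04 in clone 4, with clone 8 values of -0.11 and -0.10. The receptor Acvr2b was the sixth, and Fst, follistatin, which binds activin, was the 1 with a higher change (clone 4 value -0.95, clone 8 value 0.76, neither called). Nodal itself rose in both clones, by 0.72 and 0.99, and the difference of 0.27 (adjusted p 0.382, edgeR) did not pass.

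Of the 14 tested genes of the naive pluripotent state, 11 rose and 3 fell in clone 4, and 3 rose and 5 fell in clone 8. The change was lower in clone 8 for 9 of them and higher for 0, against 6.89% of all genes, with a median difference of -0.71. At 4h 10 of the 14 were higher in clone 8 and 2 in clone 4, against 12.6% and 11.6% of all genes. At rev 6 and 4 were, against 12.3% each. The count of 9 was 5 without library 1 of clone 4 at 4h and 10 with library totals.

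Nanog, a core transcription factor of the naive state, rose from 111 and 169 CPM to 407 and 432 CPM in clone 4 and from 404 and 468 CPM to 722 and 666 CPM in clone 8. The clone 4 values of Nanog at rev lay within the range of the clone 8 values at 4h. Tfcp2l1 rose from 112 and 135 CPM to 275 and 308 CPM in clone 4, and clone 8 held 365 and 361 CPM at 4h and 405 and 441 CPM at rev, a value of 0.22 (SE 0.13, adjusted p 0.396, edgeR). Prdm14, a repressor of FGF receptor genes and of DNA methylation, rose from 5.87 and 8.89 CPM to 20.0 and 21.8 CPM in clone 4 and stood at 21.7 and 19.1 CPM and at 28.2 and 28.3 CPM in clone 8 (0.46, adjusted p 0.0652, edgeR).

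Dppa3 and Tcl1 changed in opposite directions. Dppa3, which protects methylation marks in the early embryo, rose from 19.5 and 27.7 CPM to 52.0 and 56.5 CPM in clone 4 and fell from 32.7 and 37.1 CPM to 20.0 and 26.4 CPM in clone 8. Tcl1, a coactivator of AKT, rose from 16.3 and 19 CPM to 31.3 and 29.1 CPM in clone 4 and fell from 38.9 and 46.7 CPM to 22.4 and 22.4 CPM in clone 8. For both genes the order of the clones switched, clone 8 being higher at 4h and clone 4 at rev. Klf4, Klf2, Esrrb and Dppa5a, also called and outside the naming rule, rose by 1.5, 1.06, 0.67 and 0.82 in clone 4. Klf4 and Klf2 rose in clone 8 too, by 0.74 and 0.49.

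**Figure D5:**
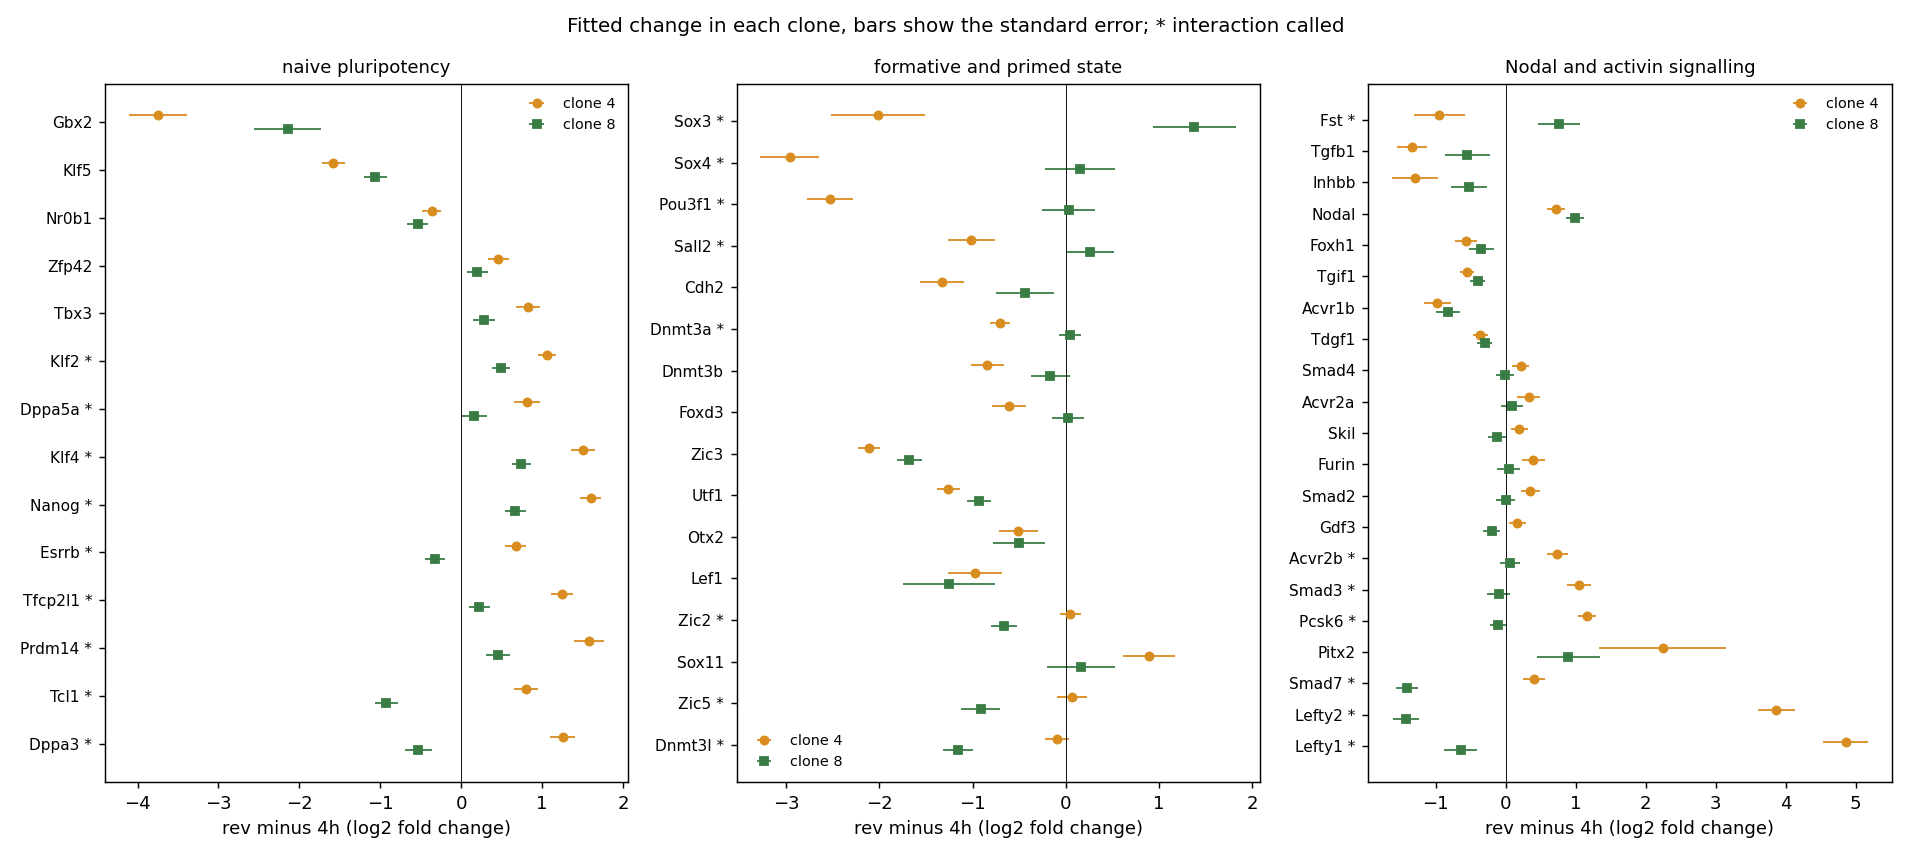
Log2 change from 4h to rev, with its standard error, for 14 naive pluripotency genes (left), 16 genes of the formative and primed state (middle) and 21 genes of Nodal and activin signalling (right), clone 4 as circles and clone 8 as squares. Asterisks mark the 9, 8 and 7 members whose change differed between the clones; the Lefty1 and Lefty2 circles lie at 4.85 and 3.87 and their squares at -0.64 and -1.43.

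Genes of the later, formative and primed states were mixed. Of 16 tested, 5 had a higher and 3 a lower change in clone 8, against 6.3% and 6.89% of all genes. The median of 0.53 turned to -0.13 with library totals as the scaling. Pou3f1, a POU factor of the formative state, fell in clone 4 from 17.1 and 11.7 CPM to 3.16 and 2.04 CPM, and clone 8 held 5.43 and 4.29 CPM at 4h and 5.45 and 4.86 CPM at rev. Sox4 fell in clone 4 from 16 and 7.87 CPM to 1.69 and 1.55 CPM, and clone 8 stayed between 3.12 and 3.63 CPM. Sox3 stood at or below 3.33 CPM in each of the 8 libraries, with log2 values of -2.01 in clone 4, which passed, and 1.38 in clone 8 (SE 0.45, adjusted p 0.0651, edgeR). Sall2 and Dnmt3a, a methyltransferase that sets new DNA methylation, fell by 1.02 and 0.70 in clone 4.

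The 3 lower ones changed in clone 8 instead. Dnmt3l, a cofactor of new DNA methylation, fell by 1.16 in clone 8, from 44.7 and 40.1 CPM to 17.0 and 20.2 CPM, with a clone 4 value of -0.10 (adjusted p 0.636, edgeR). Zic2 and Zic5, zinc-finger factors of the primed state and chosen here after their values were seen, fell by 0.66 and 0.91 in clone 8, with clone 4 values of 0.05 and 0.06. Without library 1 of clone 4 at 4h, 2 and 1 members of the list were called.

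Of 3 lists of signals that meet the ERK pathway, 3 of 13, 4 of 10 and 2 of 13 genes differed in either direction, against 13.2% of all genes; the count for LIF lies near that share and is not read as a result. Of 13 genes of BMP signalling and its ID targets, Id3, an inhibitor of basic helix-loop-helix factors, fell in both clones and less in clone 8 (log2 changes of -3.26 and -1.5), and Id4 and the receptor gene Bmpr2 had a lower change in clone 8. Bmpr2 rose in clone 4 from 16 and 15.5 CPM to 31.3 and 32.3 CPM, and clone 8 held 31.0 and 31.9 CPM at 4h and 31.5 and 28.3 CPM at rev. Of 10 genes of Wnt signalling 4 had a higher change in clone 8, namely Ccnd1, Tcf7l2, Porcn and Tcf7, although the median of the list was -0.20. Tcf7l2 and Tcf7, transcription factors at Wnt target genes, fell by 1.68 and 1.19 in clone 4. Porcn, the acyltransferase that IWP2 inhibits, stood at 11.2 and 13 CPM in clone 4 at 4h and 6.89 and 5.24 CPM at rev, and at 10.8 and 9.49 then 12.1 and 12.8 CPM in clone 8. With library totals 2 Wnt genes had a higher and 2 a lower change. Of 13 genes of LIF and STAT3 signalling, Socs2, a feedback inhibitor, fell in both clones and more in clone 8 (by 0.57 and 1.32), and Il6st, the shared receptor chain, rose by 0.60 in clone 4.

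Of 20 tested cyclins of the G1 phase, cyclin-dependent kinases, their inhibitors and p53 targets, 11 were not called. The change was higher in clone 8 for 5 (Ccnd2, Perp, Ccnd1, Ccne1 and Ccnd3) and lower for 4 (Phlda3, Trp53inp1, Cdkn1a and Ccng1). The shares of all genes were 6.3% and 6.89%. Perp is a membrane target of p53 and Cdkn1a, also a p53 target, an inhibitor of cyclin-dependent kinases; the 11 not called include the cyclin Ccne2 and the p53 targets Mdm2 and Sesn1. Ccnd1 fell in clone 4 from 30.1 and 22.9 CPM to 9.60 and 7.08 CPM, and clone 8 held 20.3 and 20.5 CPM at 4h and 25.4 and 20.3 CPM at rev. Ccne1 fell from 51.2 and 49.3 CPM to 24.3 and 25.5 CPM in clone 4 and stood at 38.2 and 42.0 CPM and at 50.6 and 53.3 CPM in clone 8 (0.39, SE 0.12, adjusted p 0.0532, edgeR). Cdkn1a rose in both clones, by 1.83 in clone 4 and 1.06 in clone 8. Phlda3, Trp53inp1 and Ccng1, the other 3 with a lower change in clone 8, rose by 0.77 to 1.12 in clone 4 and did not pass in clone 8. Perp, also a p53 target, went the other way, with a clone difference of 2.01. Without library 1 of clone 4 at 4h the counts were 5 and 2.

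Tested here were 19 genes of the actin cytoskeleton and of SRF and YAP targets. At 4h 12 were higher in clone 4 and 2 in clone 8, against 11.6% and 12.6% of all genes. The change was higher in clone 8 for 5 of the 19 and lower for 1, against 6.3% and 6.89%. Rhob, a small GTPase, was the lower one: it rose in clone 4 from 2.00 and 3.30 CPM to 24.3 and 24.5 CPM and in clone 8 from 8.95 and 7.35 CPM to 12.7 and 16.2 CPM. Ccn1, a matricellular target of SRF and YAP, fell by 0.85 in clone 4 and rose by 0.85 in clone 8, ending at 11 and 11.3 CPM against 11.5 and 9.59 CPM. Actg1, cytoplasmic gamma actin, fell from 197 and 199 CPM to 136 and 138 CPM in clone 4 and rose from 87.9 and 98.5 CPM to 154 and 128 CPM in clone 8. Amotl2, a YAP-binding protein, rose in both, by 0.64 and 1.31. With library totals, 0 genes of the list had a higher and 3 a lower change.

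Of 16 genes of epithelial keratins, junctions and caveolae, Emp1 and Cavin1 had a higher change in clone 8 and Cldn7 and Dsp a lower one. The shares of all genes were 6.3% and 6.89%, and counts of 2 and 2 are not read as a result about the list. Cavin1, which coats caveolae, fell from 142 and 99.3 CPM to 36.5 and 39.7 CPM in clone 4 and rose from 7.44 and 5.51 CPM to 14.5 and 13.9 CPM in clone 8, so at 4h and at rev the clones did not overlap and clone 4 was the higher one. Dsp, desmoplakin, rose by 0.67 in clone 4. Cldn7 was at or below 2.04 CPM in each of the 8 libraries, and its call was lost in 8 alternatives.

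Of 23 genes of the ATF4 amino-acid response, 6 had a higher change in clone 8, namely Chac1, Stc2, Trib3, Nupr1, Ddit3 and Shmt2. A lower change was called for 1, Asns. The shares of all genes were 6.3% and 6.89%. The median of 0.37 turned to -0.30 with library totals, which called 1 and 2. Chac1, which degrades glutathione, fell by 1.56 in clone 4, from 5.60 and 4.32 CPM to 2.15 and 1.36 CPM, and rose by 0.92 in clone 8, from 4.93 and 3.83 CPM to 8.48 and 8.44 CPM (adjusted p 0.0498, edgeR). Trib3 and Stc2 fell by 1.11 and 1.88 in clone 4. Asns, asparagine synthetase, rose by 0.59 in clone 4. Without library 2 of clone 4 at rev 3 had a higher change.

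Of 24 genes of glycolysis and the hypoxia response, 3 had a higher and 3 a lower change, against 6.3% and 6.89% of all genes. Pdk1, which holds pyruvate out of mitochondria, rose from 3.47 and 7.11 CPM to 9.83 and 9.12 CPM in clone 4 and fell from 19.8 and 24.5 CPM to 10.3 and 9.85 CPM in clone 8, so that the clones met at rev. Vegfa, a growth factor for vessels, rose in clone 8 from 17.6 and 14.2 CPM to 43.3 and 35.1 CPM, with a clone 4 value of -0.38 (SE 0.16, adjusted p 0.0868, edgeR). Aldoc fell by 1.15 in clone 8, Pgk1 rose by 0.42 in clone 4, and Hk2 and Slc2a1 fell by 0.57 and 0.76 in clone 4. The counts were 1 and 1 without library 1 of clone 4 at 4h, 1 and 4 without library 2 of clone 4 at rev, and 0 and 7 with library totals. The sterol list gave 0 higher and 2 lower of 29 (Insig1 and Cyp51; 0 and 8 with library totals), ribosome biogenesis 3 and 1 of 30 (Bop1, Rrp9 and Noc3l, and Nop58), and heat shock 0 and 0 of 12 by edgeR and DESeq2 (2 at an unadjusted p under 0.05). These shares lie near or below those of all genes, 6.3% higher and 6.89% lower, so the counts are not read as results about the lists. Their medians were -0.11, 0.06 and 0.00. The calls of Insig1 and Cyp51 were each lost in 8 alternatives, those of Nop58, Noc3l and Rrp9 in 15, 11 and 9, and for Rrp9 and Noc3l the sign turned with library totals.

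Among 14 imprinted growth genes, 9 were higher in clone 4 at 4h and 11 at rev, against 11.6% and 12.3% of all genes. None was higher in clone 8 at 4h or rev, and the change differed for 5, against 13.2%. Peg3, a zinc-finger gene expressed from the paternal copy, stood at 103 and 98.8 CPM at 4h and 160 and 162 CPM at rev in clone 4, and at 38.5 and 47.6 CPM and 42.7 and 31.6 CPM in clone 8. Mest fell from 70.4 and 61.5 CPM to 24.3 and 23.9 CPM in clone 4, and clone 8 lay between 17.3 and 21.5 CPM. Igf2r and Impact had a lower change in clone 8 and Plagl1 a higher one, the last lost in 12 alternatives.

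A few genes went opposite ways, and these were chosen after their values were seen, as the largest of each pattern. Of 30 genes that fell in clone 4, rose in clone 8 and met the conditions of the naming rule, Sema6a, a transmembrane semaphorin, fell from 15.9 and 8.38 CPM to 5.20 and 5.34 CPM in clone 4 and rose from 0.804 and 0.766 CPM to 3.33 and 4.09 CPM in clone 8. Nptx1, a secreted neuronal pentraxin, went from 14 and 14.5 CPM to 6.78 and 5.53 CPM in clone 4 and from 3.32 and 4.59 CPM to 15.7 and 11.9 CPM in clone 8. Mlxipl, a transcription factor that responds to glucose, fell from 4.53 and 6.6 CPM to 2.37 and 2.43 CPM in clone 4 and rose from 6.33 and 7.04 CPM to 27.9 and 15.2 CPM in clone 8. Rnf128 and Cavin1 were the other 2 named beside Emp1.

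Among 32 such genes that rose in clone 4 and fell in clone 8 were Lefty2, Tcl1 and Pdk1. Slco4c1, an organic anion transporter, rose from 4.27 and 4.06 CPM to 16.8 and 20.6 CPM in clone 4 and fell from 15.1 and 15.2 CPM to 10.6 and 7.29 CPM in clone 8. Its 0h libraries lay between 13.8 and 16.8 CPM in both clones, so clone 4 at 4h was the low group. Pla1a, a phospholipase that cleaves phosphatidylserine, rose from 1.60 and 2.29 CPM to 6.66 and 5.72 CPM in clone 4 and fell from 7.74 and 8.12 CPM to 3.03 and 3.33 CPM in clone 8. Fut9, the fucosyltransferase that makes the SSEA-1 antigen, rose by 1.04 in clone 4 and fell by 1.15 in clone 8. Fabp3, a fatty-acid binding protein, rose by 1.42 and fell by 0.79.

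Other genes with a lower change in clone 8 were low in clone 4 at 4h and rose to about the clone 8 level or above. Rasgef1a, an exchange factor for Ras family proteins, rose from 2.13 and 2.29 CPM to 17.7 and 14.7 CPM in clone 4, and clone 8 held 9.85 and 7.66 CPM at 4h and 12.4 and 8.57 CPM at rev. Fam189a2 rose from 1.33 and 0.762 CPM to 5.87 and 7.47 CPM in clone 4, with 5.93 and 6.13 then 3.63 and 5.12 CPM in clone 8. Fhod3, a formin that nucleates actin, rose from 1.47 and 3.56 CPM to 9.04 and 9.60 CPM in clone 4, and clone 8 lay between 8.48 and 15.1 CPM. Zbtb20 (a transcriptional repressor), Prickle2 (planar cell polarity), Unc13d (vesicle release) and Hlcs (which attaches biotin to carboxylases) rose by 1.45, 1.94, 1.61 and 2.09 in clone 4, and their clone 8 values of -1.25, -0.73, -0.88 and -0.36 did not pass. Zfp469 rose in clone 4 from 0.667 and 0.508 CPM to 5.76 and 7.37 CPM, but clone 8 held at most 2 counts in each library at 4h and rev, so no fold is given for it there and its call was lost in 9 alternatives.

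A smaller set changed in clone 8 and was not called in clone 4; here too the genes are among the largest of their pattern. Tgm1, a transglutaminase of the epidermis, rose in clone 8 from 8.24 and 9.19 CPM to 26 and 24.3 CPM, with clone 4 at 4.4 and 1.78 then 2.71 and 3.01 CPM. Mdga1, an adhesion protein, rose from 3.52 and 4.75 CPM to 13.6 and 13 CPM, and Adgra2, an adhesion G-protein-coupled receptor, from 4.32 and 5.97 CPM to 13 and 15.5 CPM. Usp17lb and Mir6240 also had this pattern, and reads of such repeated sequence can be placed elsewhere. Usp17lb was at or below 0.800 CPM in each clone 4 library at 4h and rev, so its clone 4 value rests on few counts. Mir6240 stood at 59.0 and 20.2 CPM in clone 8 at rev, with the higher value in the shallowest library. In clone 4 the log2 values were -0.27 for Tgm1, 0.06 for Mdga1 and -0.19 for Adgra2. The call of Mdga1 was lost in 6 alternatives. Cnpy1 fell from 21 and 18.1 CPM to 11.2 and 8.44 CPM in clone 8, and Pirt, St8sia6, Rimkla and Gstp2 fell by 0.82 to 1.63. The calls of Pirt and Rimkla were each lost in 9 alternatives. B3gnt7 and Socs2 fell in both clones, and Txnip, an inhibitor of thioredoxin, and Amotl2 rose in both, each by more in clone 8.

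Markers of other cell types moved with some of these groups. The 12 primitive endoderm markers in the table summed to 334 to 379 CPM in clone 4 at 4h and 282 to 301 CPM at rev, and to 382 to 387 and 451 to 479 CPM in clone 8. Single members did not all follow these sums. Of 8 tested, 4 rose and 2 fell in clone 4, and 4 rose and 0 fell in clone 8. Their median log2 changes were 0.79 in clone 4 and 0.70 in clone 8. A higher change in clone 8 was called for 2 (Lamb1 and Sparc, the second turning sign with library totals). A lower change was called for 1 (Col4a2, lost in 15 alternatives). The shares of all genes were 6.3% and 6.89%, and library totals gave 0 higher and 1 lower. The 10 trophoblast markers summed to 64.7 to 66.3 and 72.5 to 74.2 CPM in clone 4. In clone 8 they summed to 48.2 to 50.6 and 48.5 to 64.5 CPM. Gata3 and Plet1 of 7 tested had a higher change in clone 8, against 6.3% of all genes. The call of Gata3 was lost in 5 alternatives, and library totals gave 0 higher and 1 lower for the list. Markers of 2-cell-like cells summed to 12.9 to 14.9 and 25.4 to 27.1 CPM in clone 8 against at most 1.87 CPM in clone 4. All 5 tested were higher in clone 8 at 4h and at rev, against 12.6% and 12.3% of all genes. From 4h to rev 3 of the 5 rose in clone 8 and 0 in clone 4, with a median difference of 1.37. The change differed for 0 of 5 by edgeR or DESeq2 (2 at an unadjusted p under 0.05). At such low levels in clone 4 this does not show an equal change. The 10 fibroblast markers summed to 741 to 752 and 805 to 817 CPM in clone 4 and to 807 to 819 and 588 to 754 CPM in clone 8. Vim, vimentin, which pluripotent cells also express, fell from 220 and 156 CPM to 62.2 and 64.9 CPM in clone 4, and clone 8 stood between 47.7 and 54.2 CPM. Fn1, fibronectin, rose by 0.43 in clone 4 and had a lower change in clone 8. The part of any such cells in the results was not tested, and in bulk RNA fewer cells of a type and less RNA per cell cannot be told apart.

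The libraries at 0h and 2h give the same 2 clones without the inhibitor. Between 0h and 2h the change differed between the clones for 1012 genes (7.94%; 373 higher in clone 8, 2.93%, and 639 lower, 5.01%). Of the 803 genes with a higher change from 4h to rev in clone 8, 116 (14.4%) also had a higher change from 0h to 2h and 33 (4.11%) a lower one. Of the 878 with a lower change, 231 (26.3%) had a lower change from 0h to 2h and 10 (1.14%) a higher one. The difference from 0h to 2h was positive in 63.9% of the 803, 16.3% of the 878 and 48.1% of all tested genes. These libraries are not shared between the 2 contrasts. Both contrasts use the same estimate of the spread, and both cross the split on the third principal component described above.

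Among the ERK targets the signs differed between the contrasts. From 0h to 2h, 7 of 21 immediate-early factors had a lower change in clone 8 and 1 a higher one, and of 17 feedback inhibitors 4 and 1. Their medians were -0.91 and -0.57 on the log2 scale, against 0.80 and 1.33 from 4h to rev. Egr1 reached 457 and 572 CPM at 2h in clone 4 and 180 and 169 CPM in clone 8. Dusp6 was at 33.5 and 35.4 CPM at 2h in clone 4 and 31.1 and 28.0 CPM in clone 8. The clones thus stood close together for Dusp6 at 2h and apart at 4h. Of the 14 naive genes 4 had a lower and 1 a higher change in clone 8 from 0h to 2h.

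Several genes named here share exon bases with another gene, with at least 1 partner on the opposite strand, and whether reads were counted by strand is not given in the sources used here. The shared part of the exons is 54.6% for Sox4, 33.0% for Phlda1, 23.4% for Ccnd1, 23.1% for Mest, 19.6% for Fabp3, 19.4% for Txnip and 16.4% for Soga3, so their counts are uncertain. Nanog, Actg1, Gstp2 and Dppa5a have close copies in the genome that can share reads.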

How the data were processed

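Total RNA depleted of ribosomal RNA was sequenced from 16 libraries, 2 for each of 2 clones in 4 conditions. The authors deposited whole-number read counts per gene for each library; per the submitters' processing notes the tools were bcl2fastq 2.19.1 and STAR 2.5.3a with the mouse build mm10. The counting program and its strand setting are not given in the sources used here. Of 52636 gene IDs, 52489 were matched to GENCODE release 21 of the mouse annotation for symbols and coordinates and 147 were not.

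Genes were kept by edgeR's filter over the 4 conditions (minimum count 10, minimum total 15), which left 12742. Counts were scaled by TMM and fitted with edgeR 4.0.16 in R 4.3.3 (quasi-likelihood, 8 combinations of clone and condition, 8 residual degrees of freedom), with Benjamini-Hochberg adjustment over all tested genes and a threshold of 0.05. Each standard error is the log2 value divided by the root of its F statistic. CPM are TMM-scaled over the tested genes. A change or a level difference compares 2 libraries with 2, and a clone difference of a change uses 8 libraries. Standard errors take in the spread estimated over all 16 libraries, while the floor of 3 counts covers counting error only.

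Named genes were called, averaged 50 counts or more in the highest of the 4 groups, and had all differences between libraries within clone 8 outside the range of those within clone 4. The 12 largest in each direction were named, and up to 4 called members of each gene list. The members and the lists were chosen with earlier results of these data known. Alternatives were other scalings, DESeq2 1.42.0, limma 3.58.1 (voom), other filters and thresholds, thinning, a replicate block and leaving out each library. 1 gene chosen by these rules is not reported here. Counts of list members under these settings were added after the data were seen. Data were simulated for the clone difference of the change from 4h to rev, with 12742 genes, the fitted spread and no other group difference. Changed genes were drawn only from those averaging 50 counts or more over the 16 libraries. Of these, 74 of 100 changed by 1 on the log2 scale and 100 of 100 changed by 2 were called. Of 12542 unchanged genes 14 were called. Each gene was given the same spread in all 16 libraries, so unequal spread between groups was not simulated. The count of 14 therefore does not give the false calls in the real data. The share recovered does not cover genes of lower count. Before TMM, the 2 libraries of a group differed by more than counting noise in every group (chi-square per degree of freedom 4.36 to 67.2). None was merged.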

Additional observations from a re-analysis of the deposited data

Results flagged for a closer look

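A difference between the clones, tested as an interaction, marks every result here. The change from 4h to rev differed for 1681 genes and the change from 0h to 2h for 1012. The values below are log2 changes from 4h to rev in clone 8 minus those in clone 4, each with an adjusted p under 0.05 by edgeR. Of the genes named for their size, the positive values were 4.53 for Emp1, 4.47 for Soga3, 4.29 for Ptprn, 3.90 for Ccnd2, 3.88 for Snai3, 3.85 for Plaur, 3.85 for Ociad2, 3.72 for Ap1s3, 3.64 for Smim3, 3.54 for Sema6a, 3.51 for Fosl2 and 3.39 for Il6ra. The negative ones were -5.50 for Lefty1, -5.29 for Lefty2, -3.02 for Pla1a, -3.01 for Slco4c1, -2.93 for Fam189a2, -2.73 for Rasgef1a, -2.70 for Zbtb20, -2.67 for Prickle2, -2.54 for Fhod3, -2.49 for Unc13d and -2.45 for Hlcs. Zfp469 had a fitted value of -4.70, which depends on the prior count and gives no size, since clone 8 held at most 2 counts in each library at 4h and rev. Further genes that went opposite ways had 2.99 for Nptx1, 2.79 for Rnf128, 2.77 for Cavin1, 2.72 for Mlxipl, -2.21 for Fabp3, -2.19 for Fut9 and -2.11 for Pdk1. Genes called in clone 8 and not in clone 4 had 2.03 for Mir6240, 1.79 for Tgm1, 1.73 for Adgra2 and 1.66 for Mdga1. Negative values there were -2.06 for Pirt, -1.82 for Smad7, -1.55 for St8sia6, -1.48 for Rimkla, -1.33 for Gstp2 and -1.31 for Cnpy1. Usp17lb, of the same pattern, had a fitted value of 2.85. It gives no firm size, since the clone 4 libraries at 4h and rev were at or below 0.800 CPM. Genes that moved one way in both clones and by more in clone 8 had -0.81 for B3gnt7, -0.75 for Socs2, 1.02 for Txnip and 0.67 for Amotl2.

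Among immediate-early factors the values were 2.27 for Etv4, 2.16 for Junb and 2.13 for Egr1. ERK feedback inhibitors had 3.61 for Dusp2, 3.14 for Phlda1, 2.5 for Dusp4 and 2.31 for Dusp6. Receptors, ligands and kinases of the pathway had 2.64 for Fgfr4, -2.04 for Fgfr2, -0.97 for Fgf4 and 0.90 for Braf. Naive pluripotency genes had -1.78 for Dppa3, -1.72 for Tcl1, -1.13 for Prdm14 and -1.02 for Tfcp2l1. Formative and primed genes had 3.39 for Sox3, 3.11 for Sox4, 2.56 for Pou3f1 and 1.28 for Sall2. For Nodal signalling the value was 1.71 for Fst. BMP and ID genes had 1.76 for Id3, -1.72 for Id4 and -1.10 for Bmpr2. Wnt genes had 1.84 for Ccnd1, 1.81 for Tcf7l2, 1.28 for Porcn and 0.98 for Tcf7. LIF signalling had -0.58 for Il6st. Cytoskeletal genes had -2.44 for Rhob, 1.70 for Ccn1 and 1.12 for Actg1. Junction genes had -2.82 for Cldn7 and -0.81 for Dsp. Genes of the amino-acid response had 2.48 for Chac1, 1.99 for Stc2, 1.44 for Trib3 and 1.23 for Nupr1. Glycolysis and hypoxia genes had 1.62 for Vegfa, -1.44 for Aldoc and -0.74 for Pgk1. Sterol genes had -0.57 for Insig1 and -0.47 for Cyp51. Ribosome biogenesis genes had 0.67 for Bop1, 0.61 for Rrp9, 0.57 for Noc3l and -0.41 for Nop58, and the calls of the last 3 were lost in 9, 11 and 15 alternatives. Cyclins and p53 targets had 2.01 for Perp and 1.40 for Ccne1. Imprinted genes had 1.54 for Mest, -0.92 for Peg3, -0.90 for Igf2r and 0.75 for Plagl1. Primitive endoderm markers had 0.95 for Lamb1, -0.77 for Col4a2 and 0.59 for Sparc. Trophoblast markers had 1.5 for Plet1 and 1.32 for Gata3. Fibroblast markers had 1.41 for Vim and -0.72 for Fn1. The pluripotent marker value was -0.93 for Nanog.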

How the results depend on the processing

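The counts of called genes are given in the order clone difference of the change from 4h to rev, change in clone 4, change in clone 8, clone difference at 4h, at rev and at 0h, and clone difference of the change from 0h to 2h. At an adjusted p under 0.01 they were 852, 2167, 352, 2047, 1961, 828 and 416. With an absolute log2 value of at least 1 they were 798, 1129, 250, 1247, 1065, 553 and 449. After thinning to equal totals they were 905, 2106, 371, 1954, 1974, 896 and 451. With library totals, 1273 genes were called in clone 4, 2111 in clone 8, 1789 at 4h, 418 at 0h and 476 from 0h to 2h; the order of the clones in count thus turned. DESeq2 called 987 for the main difference, 377 in clone 8, 878 at 0h and 496 from 0h to 2h. The cause of these shifts was not tested, other than that stricter thresholds keep fewer genes. Leaving out 1 library gave 727 to 1528 genes for the main difference, 1650 to 2819 in clone 4, 315 to 557 in clone 8, 1483 to 2728 at 4h, 1903 to 2543 at rev, 651 to 1433 at 0h and 424 to 1149 from 0h to 2h. Of the 727 genes called without library 1 of clone 4 at 4h, 705 were among the 1681. A group left with 1 library is assumed to vary like the others.

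For the single genes named, 725 results without 1 library kept their call and 131 lost it; under the other settings 1228 kept it, 124 lost it and 3 turned sign. Beyond those given beside their genes, calls lost in 6 or more settings were those of Aldoc (9), Nupr1 (8), Plet1, Sall2 and Usp17lb (7 each), and Fst and Il6st (6 each). The 3 that turned sign were Rrp9 (-0.032), Noc3l (-0.099) and Sparc (-0.11), all with library totals. Libraries with the same number were not treated as paired, since the labels do not say what a number marks. Over 12 pairs the mean correlation of their deviations was -0.01 (-0.13 to 0.12), with 1 pair over 0.1. Such weak correlations cannot show whether the libraries were paired. A replicate block gave 1533 genes, 1508 of them shared with the 1681. Depth limits the genes at a few CPM, above all in library 1 of clone 8 at rev, where 3 counts equal 0.908 CPM.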

Other observations

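Replication-dependent histone genes, whose RNA mostly lacks a poly(A) tail and is kept by ribosomal depletion, rose in clone 4 from 4h to rev in 21 of 52 tested and in clone 8 in 1, against 13.5% and 3.15% of all genes. Of these 52, 7 had a lower change in clone 8 and 0 a higher one, against 6.89% and 6.3%, with a median difference of -0.35 on the log2 scale against -0.02 for all genes. The count of 7 was 1 without library 1 of clone 4 at 4h and 16 with library totals as the scaling. At 4h 14 of the 52 were higher in clone 8 and 1 in clone 4, against 12.6% and 11.6%. No difference was called among 11 transcripts of the mitochondrial genome or 25 small nucleolar and Cajal body RNAs by edgeR or DESeq2 (0 and 4 at an unadjusted p under 0.05); library totals called 5 and 3 of them lower in clone 8.

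Genes with a lower change in clone 8 were longer. Their median exon length was 6291 bases over 861 protein-coding genes, against 4513 bases over 775 with a higher change and 4616.5 bases over all 11674 tested. Length is given as a description with no test.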
